A study of Homo sapiens with 3 samples.

Results

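The genes of the cytosolic ribosomal proteins were examined in chromatin maps of H2087, a human lung adenocarcinoma cell line. They were the protein-coding genes of GENCODE 44 mapped to hg19 whose symbol is RPL or RPS followed by a number, with RPLP0, RPLP1, RPLP2 and RPSA, and 86 of 20163 protein-coding genes met this rule. Of the 86, 52 belong to the large 60S subunit and 34 to the small 40S subunit, and 9 are paralogs such as RPL3L and RPS27L beside 77 standard subunit genes. The rule left out 4 genes that encode ribosomal proteins under other symbols, among them FAU, RACK1 and RPL36AL.

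Chromatin immunoprecipitation with sequencing was performed on untreated H2087 cells, cultured in RPMI medium with serum, for H3K4me3 (trimethylation of histone H3 at lysine 4) and H3K27ac (acetylation at lysine 27). Each mark was a group of 1 library (n = 1), so no test was possible and each value describes these libraries. The peak list of each mark was used. Input chromatin, the remaining sample, was not analysed here. Read counts are not part of the lists, so the depth is unknown, and starts that lack a peak may have had too few reads.

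A ribosome is built from ribosomal RNA and many small proteins, whose genes are transcribed at high rates in growing cells. Transcripts of these genes typically begin with a cytosine followed by a run of pyrimidines, the terminal oligopyrimidine tract, through which mTOR signalling controls their translation. H3K4me3 and H3K27ac are found on the nucleosomes that flank active promoters, and introns of ribosomal protein genes often hold small nucleolar RNAs (snoRNAs) that guide the modification of ribosomal RNA.

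RefSeq promoter sequences (GRCh38.p14) were matched by symbol for 69 of the 86 genes, and 67 were placed on hg19 by exact match. The stretch from 40 bases before the start to the first 20 transcribed bases is shown for 5 genes with both marks and among the strongest peaks. Then follow 5 genes with neither mark, and last RPL9 and RPL4. Each is written 5′ to 3′ on the strand of the gene, and the capitals mark the longest run of C and T that reaches within 5 bases of the RefSeq start. In RPL9 and RPL4 that run is 1 base, but a longer run of C and T begins just past the limit of 5 bases.
RPL35A (chr3:197677021-197677080, plus strand): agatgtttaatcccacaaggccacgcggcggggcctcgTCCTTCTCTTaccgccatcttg
RPLP2 (chr11:809927-809986, plus strand): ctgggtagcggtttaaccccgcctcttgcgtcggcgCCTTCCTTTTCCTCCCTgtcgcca
RPS3 (chr11:75110522-75110581, plus strand): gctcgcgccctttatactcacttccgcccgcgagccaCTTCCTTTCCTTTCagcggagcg
RPL31 (chr2:101618711-101618770, plus strand): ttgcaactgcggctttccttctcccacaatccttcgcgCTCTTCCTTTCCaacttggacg
RPS7 (chr2:3622810-3622869, plus strand): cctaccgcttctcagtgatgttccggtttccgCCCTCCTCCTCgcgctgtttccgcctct
RPL13A (chr19:49990825-49990884, plus strand): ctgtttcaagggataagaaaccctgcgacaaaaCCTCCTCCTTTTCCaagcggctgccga
RPL32 (chr3:12883045-12883104, minus strand): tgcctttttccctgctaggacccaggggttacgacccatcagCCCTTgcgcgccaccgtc
RPS6 (chr9:19380215-19380274, minus strand): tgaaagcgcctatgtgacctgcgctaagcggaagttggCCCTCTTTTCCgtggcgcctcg
RPS19 (chr19:42364285-42364344, plus strand): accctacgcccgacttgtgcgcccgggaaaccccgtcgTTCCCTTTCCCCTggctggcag
RPSA (chr3:39448171-39448230, plus strand): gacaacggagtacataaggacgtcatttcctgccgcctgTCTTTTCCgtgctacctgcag
RPL9 (chr4:39460523-39460582, minus strand): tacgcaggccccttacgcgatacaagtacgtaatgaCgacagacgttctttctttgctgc
RPL4 (chr15:66797174-66797233, minus strand): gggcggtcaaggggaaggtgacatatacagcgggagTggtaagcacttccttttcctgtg

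A start base of C followed by at least 4 pyrimidines was present in 44 of the 69 genes (63.8%), against 4.65% of the 15318 protein-coding genes with a RefSeq promoter. The run had a median of 10 bases in the ribosomal protein genes and 4 in all genes. The share with this C start was close in marked and unmarked genes. It was found in 29 of 45 genes with at least 1 mark at the gene start (64.4%) and in 15 of 24 with neither (62.5%). In some genes the RefSeq start lies far from the gene start. With marks scored at the start of the canonical transcript, the C start was found in 31 of 49 marked genes (63.3%) and 13 of 20 unmarked ones (65%). In the lines above, RPS6 and RPL13A carry runs of 11 and 14 bases with neither mark. RPL9 carries both marks with a run of 1 base by this measure, which misses the longer run just past the limit.

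Short motifs were searched on both strands of the whole 300-base RefSeq promoter, which reaches 250 bases before and 50 after the start. The ETS core CCGGAAG was present in 33.3% of the 69 ribosomal protein genes and 14.4% of all genes. The YY1 core AAGATGGC was present in 10.1% and 3.97%, the GC box GGGCGG in 52.2% and 59.3%, and the letters TATAAA in 10.1% and 9.59%. Promoters of the mitochondrial ribosomal protein genes, which encode a different ribosome, held the ETS core in 42.0%, the YY1 core in 29% and the C start with pyrimidines in 7.25%. Among the 86 cytosolic ribosomal protein genes, RPL35A had the strongest H3K4me3 peak within 1 kb of the gene start. RPS6 had no peak of either mark within 1 Mb. The promoters of RPL35A and RPS6 are shown from 250 bases before the start to 20 after it, with motif matches in capitals.
RPL35A (chr3:197676811-197677080, plus strand): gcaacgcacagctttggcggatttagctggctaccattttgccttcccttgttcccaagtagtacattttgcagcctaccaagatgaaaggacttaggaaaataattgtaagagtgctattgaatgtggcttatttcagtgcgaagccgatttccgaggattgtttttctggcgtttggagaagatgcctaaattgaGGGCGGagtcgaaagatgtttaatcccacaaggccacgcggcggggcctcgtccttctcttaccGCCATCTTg
RPS6 (chr9:19380215-19380484, minus strand): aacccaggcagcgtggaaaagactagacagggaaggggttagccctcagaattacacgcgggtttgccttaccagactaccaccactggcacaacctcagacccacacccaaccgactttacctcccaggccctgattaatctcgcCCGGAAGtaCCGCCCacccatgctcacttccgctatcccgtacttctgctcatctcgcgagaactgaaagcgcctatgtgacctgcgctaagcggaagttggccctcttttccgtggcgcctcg

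The RPL35A promoter holds a GC box and, just after the start, the YY1 core on the other strand. That of RPS6 holds an ETS core with a GC box next to it. These are matches of letters and not mapped sites.

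H3K4me3 marked 54 of the 86 ribosomal protein gene starts (62.8%, exact Clopper-Pearson 95% interval 51.7 to 73.0), against 38.2% of all protein-coding starts. The start was taken as the outermost annotated 5′ base of a gene, and it was marked when a peak lay within 1 kb. H3K27ac marked 41 starts (47.7%, 36.8 to 58.7), against 23.6%. Both marks were present at 38 starts (44.2%, 33.5 to 55.3), against 18.6%, and neither at 29 (33.7%), against 56.8%. The intervals cover counting error only. In the plot of shares, the ribosomal protein genes lie above all protein-coding genes for both marks.

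**Figure D1:**
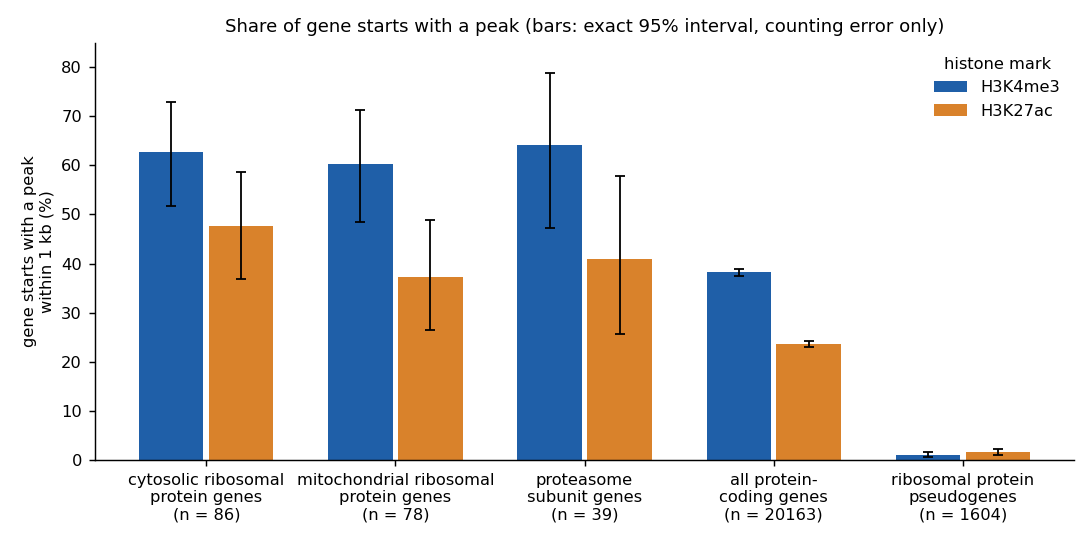
Share of gene starts (%) with an H3K4me3 or H3K27ac peak within 1 kb, for each set of genes; bars are shares and lines their exact 95% intervals, which cover counting error only. H3K4me3 was present at 62.8% of cytosolic ribosomal protein gene starts, 38.2% of all protein-coding starts and 0.935% of ribosomal protein pseudogene starts.

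Most of the marked starts carried the pair of marks. H3K27ac was present at 38 of the 54 starts with H3K4me3 (70.4%, 56.4 to 82.0), against 48.6% of all protein-coding starts with H3K4me3. H3K4me3 alone was present at 16 starts, among them those of RPL5, RPLP0, RPLP1, RPS3A, RPS10, RPS18, RPS25 and RPS26. H3K27ac alone was present at 3, those of RPL19, RPL27 and RPS2. RPL19 and RPS2 had an H3K4me3 peak just outside the window, 1252 and 1103 bp from the start, and RPL27 had none nearer than 6.94 kb.

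The subunits differed by less than their intervals. H3K4me3 marked 31 of 52 large subunit starts (59.6%, 45.1 to 73.0) and 23 of 34 small subunit starts (67.6%, 49.5 to 82.6). H3K27ac marked 26 (50%, 35.8 to 64.2) and 15 (44.1%, 27.2 to 62.1). Standard subunit genes on autosomes were marked by H3K4me3 in 51 of 73 cases (69.9%, 58.0 to 80.1) and by H3K27ac in 39 (53.4%, 41.4 to 65.2).

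Genes of related machines gave similar H3K4me3 shares. The mitochondrial ribosomal protein genes had H3K4me3 at 47 of 78 starts (60.3%, 48.5 to 71.2) and H3K27ac at 29 (37.2%, 26.5 to 48.9). The proteasome subunit genes, whose products degrade proteins, had 25 of 39 (64.1%, 47.2 to 78.8) and 16 (41.0%, 25.6 to 57.9). The intervals overlap those of the cytosolic ribosomal protein genes for both marks. All 4 ribosomal protein genes under other symbols had both marks. Of 20 ribosome biogenesis genes, which build and modify the particle, 16 had H3K4me3 and 11 H3K27ac, with FBL and NCL among those without either. Of 14 translation factor and related genes whose transcripts also carry pyrimidine tracts, 10 had H3K4me3 and 6 H3K27ac. EIF4B had −log10 q values of 15 and 5.57, and EEF1A1, the elongation factor that brings transfer RNA to the ribosome, had neither mark.

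Peak strength was read from the −log10 q in the lists, the strongest entry within 1 kb of a start. The 54 starts with H3K4me3 had a median of 3.76 (interquartile range 3.0 to 5.27), the same as the 3.76 of all marked protein-coding starts. The 41 starts with H3K27ac had a median of 3.90 (2.66 to 4.65), against 3.05. Of the 54, 16 had a value of 5 or more (29.6%, against 28.0%), and of the 41, 7 did (17.1%, against 15%). Ribosomal protein genes were marked in a larger share of cases, with H3K4me3 values in the range of other marked genes. The highest H3K4me3 value within 1 kb of a member start was 8.01, while values at protein-coding starts reached 32.8.

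Among the 5 strongest H3K4me3 peaks were those of RPL35A (8.01), RPS3 (7.46), RPLP2 (7.34) and RPS20 (6.78). The peak at RPLP2 was centred 1146.5 bp upstream of the start and did not overlap its body, and PIDD1 also starts within 1 kb. The stronger of the RPLP2 peaks downstream of the start had 4.55. RPL35A is one of the genes mutated in Diamond-Blackfan anaemia, a failure of red cell production, and RPLP2 encodes a protein of the ribosomal stalk. The H3K4me3 peak of RPL35A spanned chr3:197677102-197677736, inside intron 1 and just downstream of the stretch printed above. The H3K27ac peak there, chr3:197677111-197677468, had a −log10 q of 2.16. The strongest H3K27ac peaks lay at RPS15A (8.81), RPL31 (7.53), RPS7 (7.16), RPL26L1 (7.14) and RPL12 (7.06). The peak of RPS15A was centred 675 bp upstream of the start, and that of RPL31 290.5 bp downstream in intron 1. No gene was among the highest 5 for both marks, as the plot of the strongest peaks shows.

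**Figure D2:**
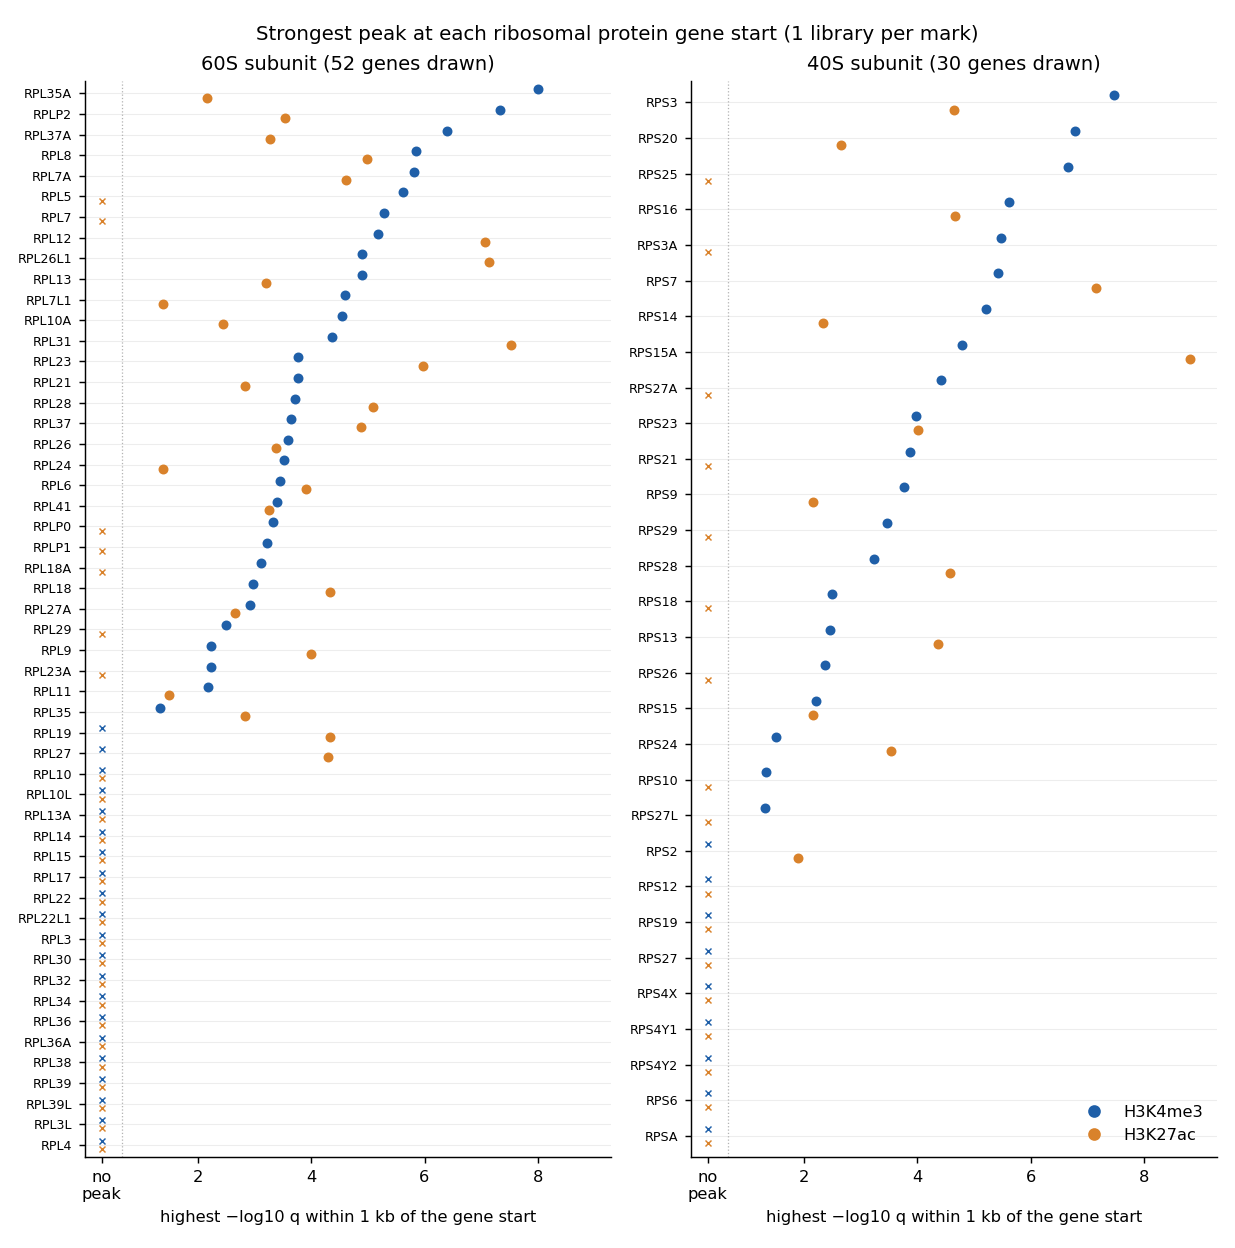
Highest −log10 q of a peak within 1 kb of the start of 82 of the 86 ribosomal protein genes, by subunit and ordered by H3K4me3; dots are H3K4me3 (blue) and H3K27ac (orange) and crosses mark starts without a peak. RPL35A (8.01) had the highest H3K4me3 value and RPS15A (8.81) the highest H3K27ac value.

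The median marked length was longer than at all marked genes. Within the 2001 bp around a marked start, H3K4me3 peaks covered a median of 560.5 bp (interquartile range 241.5 to 741.25), against 434 bp (275 to 650) at all marked starts. The lower quartile of H3K4me3 was thus below that of all marked starts. H3K27ac peaks covered a median of 473 bp (289 to 637), against 325 bp (234 to 503). The most H3K4me3 was at RPL7 (1457 bp), RPL8 (1282 bp), RPL7A (1264 bp), RPS16 (1203 bp) and RPL37A (962 bp), all genes with peaks on either side of the start. Among the genes with the most H3K27ac were RPL37A (1268 bp), RPL8 (1063 bp), RPL27A (1060 bp) and RPS20 (891 bp). At RPL7, H3K27ac had no peak within 1 kb.

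The peaks flanked the start and lay mainly on its transcribed side. Of the 59 H3K4me3 centres within 1 kb, 42 lay downstream (71.2%, 57.9 to 82.2), against 69.8% at all protein-coding starts. Of the 50 H3K27ac centres, 38 did (76.0%, 61.8 to 86.9), against 65.4%. The start base itself lay under an H3K4me3 peak in 1 of the 54 marked genes, RPL26L1, and under an H3K27ac peak in 1 of 41, against 8.64% and 6.23% of all marked starts. In RPL26L1 the canonical start lay 695 bp farther downstream. Measured from the canonical start, the start base was under a peak in 0 of 58 genes with H3K4me3 and 0 of 47 with H3K27ac, against 7.14% and 4.33%. Of 75 H3K4me3 peaks within 1 kb of the gene starts, 42 touched intron 1 of the canonical transcript (56.0%, against 53.5% over all protein-coding genes) and 9 touched exon 1 (12%, against 34.4%). Of 58 H3K27ac peaks, 29 touched intron 1 (50%, against 48.7%) and 4 exon 1 (6.90%, against 29%).

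The bins show the same shape. H3K4me3 was present in 4.65% of the ribosomal protein genes in the 100 bp before the start, in 40.7% at 400 to 499 bp after it, and again in 37.2% at 1100 to 1199 bp. For all protein-coding genes these bins held 4.10%, 20.2% and 9.70%. H3K27ac was present in 2.33% just before the start, in 32.6% at 400 to 499 bp and in 10.5% at 1100 to 1199 bp. All protein-coding genes had 1.90%, 10.1% and 4.62%.

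**Figure D3:**
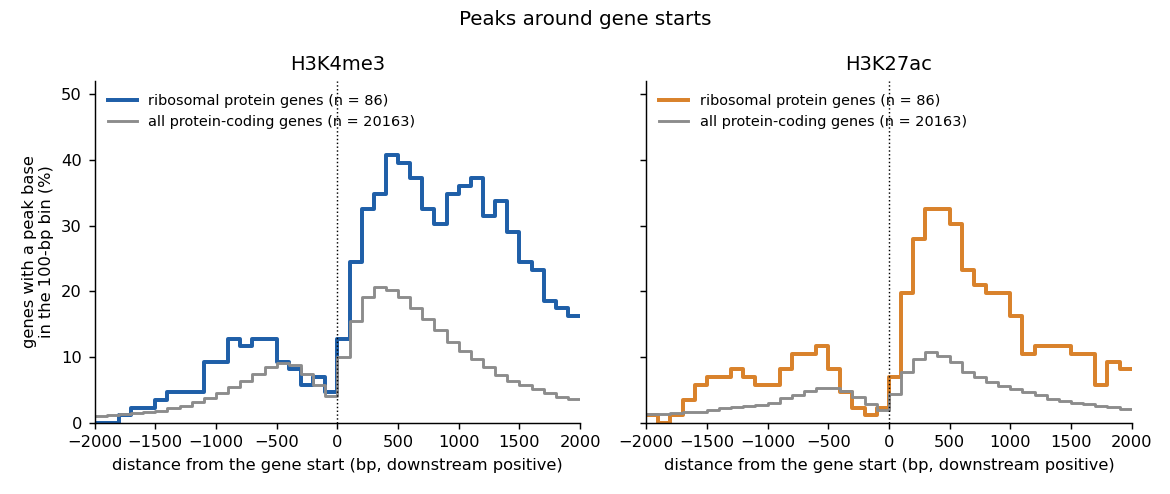
Share of genes (%) with at least 1 base under a peak in each 100-bp bin from 2 kb before to 2 kb after the gene start, for the 86 ribosomal protein genes (coloured) and all 20163 protein-coding genes (grey). H3K4me3 at the ribosomal protein genes fell to 4.65% just before the start and reached 40.7% at 400 to 499 bp after it.

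Where both marks were present, they mostly overlapped. At 32 of the 38 genes, an H3K4me3 and an H3K27ac peak had at least 1 bp in common (84.2%), against 83.6% of all genes with both marks. RPL23, RPL35, RPL9, RPS24 and RPS9 were among the 6 genes where the marks did not touch within 1 kb. In RPS24 and RPL23 they were next to each other, with H3K27ac nearer the start. In RPS24 H3K27ac covered chr10:79793686-79794322 and H3K4me3 chr10:79794337-79794628, both in intron 1. The strongest peaks of the marks lay on the same side of the start in 28 of the 38 (73.7%), against 75% of all genes with both marks, and both lay downstream in 26 (68.4%), against 59.5%.

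**Figure D4:**
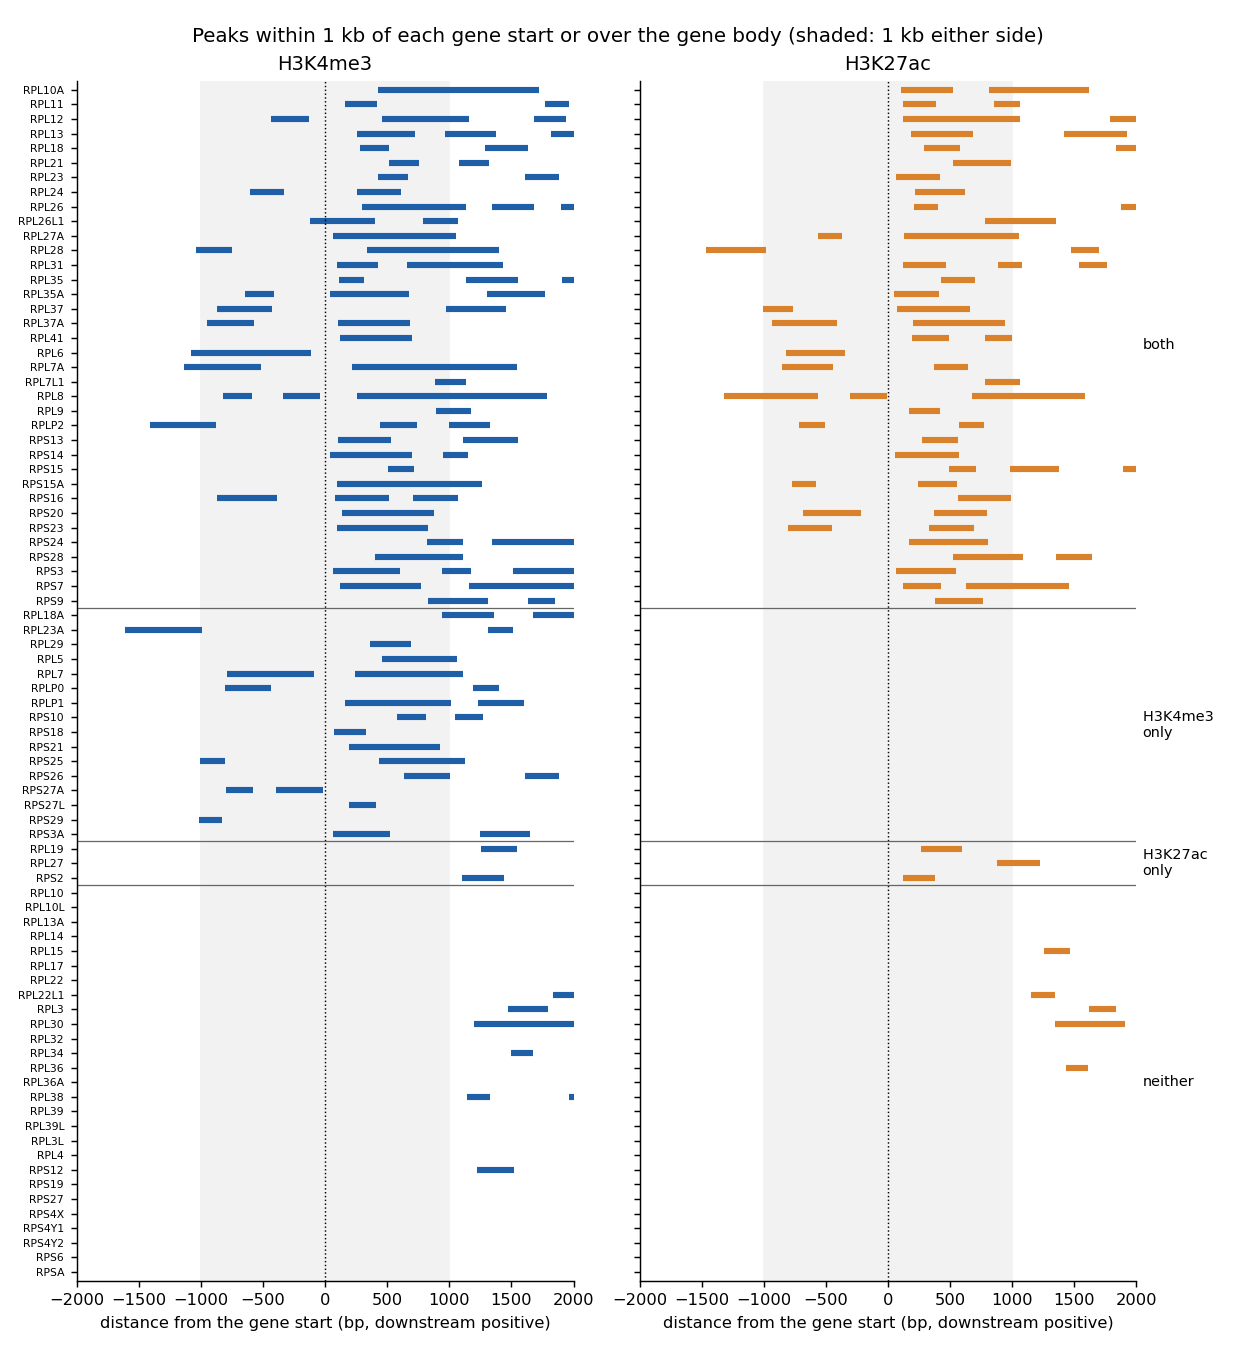
Peaks within 1 kb of each gene start or over its body, drawn by distance from the gene start (bp, clipped at 2 kb), for H3K4me3 (blue, left) and H3K27ac (orange, right); rows are 82 of the 86 genes, grouped by the marks within 1 kb (shaded). Among the genes drawn, the start base lay under an H3K4me3 peak in RPL26L1, and the lowest group had no peak within 1 kb.

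Ribosomal protein genes are short, with a median length of 5595.5 bp against 27219 bp for all protein-coding genes, yet more of their bodies held a peak. H3K4me3 overlapped 64 of 86 bodies (74.4%, 63.9 to 83.2), against 46.4%, and H3K27ac 52 (60.5%, 49.3 to 70.8), against 36.8%. Where a body was overlapped, H3K4me3 covered a median of 9.78% of it, against 1.41%, and H3K27ac 6.79%, against 1.37%. The highest shares of H3K4me3 were at RPL10A (54.5%), RPL8 (54.1%) and RPS21 (51.9%), and of H3K27ac at RPL10A (51.3%), RPS15 (40%) and RPS28 (39.0%). These 5 genes are 1418 to 2823 bp long. Without the first 1 kb of each body, H3K4me3 was still present in 55 of 86 (64.0%), against 30.9% of all bodies, and H3K27ac in 31 (36%), against 28.3%. The strongest H3K4me3 peaks over bodies, singled out after their values were seen, lay beyond 1 kb from the gene start, at RPL30 (−log10 q 10.5) and RPS3 (9.97). That of RPL30 was 1440 bp wide, over exon 3 and introns 2 and 3. The canonical start of RPL30 lies 924 bp downstream of the outer gene start, and this peak was within 1 kb of the canonical start.

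Of the 29 genes with neither mark within 1 kb, 11 had a peak over the body. They were RPL3, RPL4, RPL15, RPL22, RPL22L1, RPL30, RPL34, RPL36, RPL38, RPL39L and RPS12. In 7 of these, all but RPL22L1, RPL34, RPL38 and RPS12, a peak lay within 1 kb of the canonical start. The outer gene end lay far upstream of the canonical start in some of them, by 15348 bp in RPL36, 19677 bp in RPL4 and 9794 bp in RPL22. Measured from the canonical start, H3K4me3 marked 58 of 86 starts (67.4%), against 41.3%, and H3K27ac 47 (54.7%), against 25.2%. RPS29 was the gene that lost its mark this way. Its H3K4me3 peak was centred 922.5 bp upstream of the outer end, and LRR1 also starts within 1 kb of that end.

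The other 18 genes had no peak within 1 kb of either start or over the body. Among them were RPL10, RPL10L, RPL13A, RPL14, RPL17, RPL32, RPL36A, RPL39, RPL3L, RPS19, RPS27, RPS4X, RPS4Y1, RPS4Y2, RPS6 and RPSA, and 12 of the 18 are autosomal. RPS6 encodes the substrate that gave S6 kinase its name, and its nearest H3K4me3 peak was 2111 kb away and its nearest H3K27ac peak 2245 kb away. RPS19, the gene most often mutated in Diamond-Blackfan anaemia, had its nearest H3K4me3 peak at 216 kb, and RPSA, first described as a laminin receptor, at 253 kb. RPL32 had it at 440 kb, RPL17 at 356 kb, RPL14 at 147 kb and RPL13A at 125 kb. RPL13A, which hosts 4 snoRNAs, had an H3K27ac peak 1048 bp from its start and so just past the limit of the window. RPS27 was the only autosomal standard gene of the 18 with an H3K4me3 peak within 10 kb, at 4.85 kb.

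The neighbourhood of these genes was also sparse in H3K4me3. For each gene, the other protein-coding starts within 1 Mb were counted, leaving out those within 2 kb. A median of 50% of them had H3K4me3 around the 57 ribosomal protein genes with at least 1 mark (range 11.1 to 88.9%), against a median of 40% around all protein-coding genes and 47.5% around those with at least 1 mark. Around the unmarked it was 22.2% for the ribosomal protein genes and 33.3% for all protein-coding genes. The median was 45.7% around the 11 genes with a peak only at the canonical start or over the body, and 16.7% around the 18 without any peak, of which RPL10L had no such neighbour. Among the 10 standard autosomal genes of the 18 it was 22.2% (range 0 to 60%). RPS19 had 53 such neighbours and RPS6 had 7, and none of these had H3K4me3. RPS6, on the short arm of chromosome 9, had no peak of either mark within 1 Mb. RPL17 on chromosome 18 had 12 neighbours, of which 2 had H3K4me3, and RPSA on chromosome 3 had 18, of which 4 did. The part of the neighbourhood in the missing peaks was not tested.

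**Figure D5:**
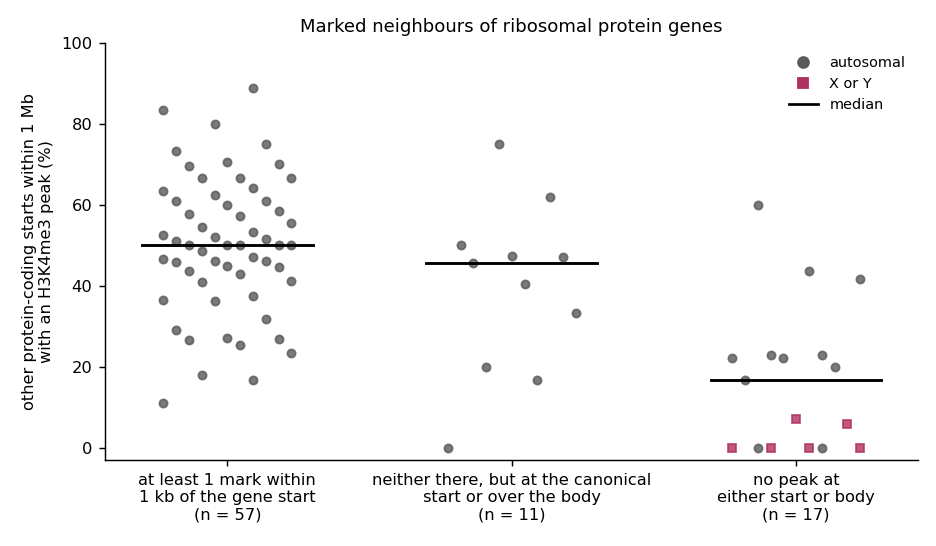
Share of other protein-coding starts within 1 Mb (%) that had H3K4me3, for each ribosomal protein gene, grouped by its own peaks; points are genes (squares on X or Y) and lines are medians. The medians were 50%, 45.7% and 16.7%, and RPL10L, which had no such neighbour, is not drawn.

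Neither mark was present at the 4 genes on X (RPL10, RPL36A, RPL39 and RPS4X) or the 2 on Y (RPS4Y1 and RPS4Y2). Of all 869 protein-coding starts on X, 3.45% had H3K4me3 and 1.15% H3K27ac. Of all 65 on Y, 0 had H3K4me3 and 0 had H3K27ac. Of 9 genes on chromosome 3, 3 had H3K4me3 (RPL24, RPL29 and RPL35A), where 40.8% of all protein-coding starts had it. Of 12 on chromosome 19, 8 had it, against 30.9%. All ribosomal protein genes on chromosomes 2, 5, 11 and 12 had it, 4, 4, 5 and 4 in number, where the shares of all protein-coding starts were 47.1%, 52.1%, 41.5% and 44%. With so few genes on each, the counts are a description. Another protein-coding start lay within 1 kb of 18 ribosomal protein genes (20.9%, against 17.5% of all genes), and H3K4me3 was present at 16 of these (88.9%, 65.3 to 98.6), against 60.1% of all protein-coding genes with such a neighbour. It was present at 38 of the 68 without one (55.9%, 43.3 to 67.9), against 33.6%. The same split was thus seen over all genes. Peaks at the 18 cannot be assigned to 1 of the genes. The 29 genes that host at least 1 snoRNA, 60 in all, had H3K4me3 at 17 starts (58.6%), and the 57 that host none at 37 (64.9%). This split was not made over all protein-coding genes.

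Sequence copies elsewhere in the genome can reduce the reads that map to 1 place. Of the 32-base words within 1 kb of the starts, a median of 9.09% occurred more than once in the genome for ribosomal protein genes, against 2.02% for all genes. The median was 10.1% for the 57 marked genes and 8.08% for the 29 unmarked ones. Over 50% was reached by 3 of the 86 genes (3.49%, against 4.62% of all genes), among them RPL10 (97.0%) and RPL39L (53.5%). All 3 were unmarked at the gene start. How the authors treated reads that map to several places is not given in the sources used here, and its part in these values was not tested.

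The marks at a few genes known from disease or signalling, and at the stalk genes, were as follows. RPL5 and RPL11, which with 5S RNA hold back MDM2 and so stabilise p53, both had H3K4me3, at −log10 q 5.62 and 2.17. RPL11 also had H3K27ac at 1.49, while the nearest H3K27ac peak of RPL5 was 1050 bp from its start. RPS14, the gene lost in the 5q- syndrome, had both marks, at 5.22 and 2.34. RPS19 and RPS6 had neither. The stalk genes, whose products recruit translation factors, had H3K4me3 at 3.33 (RPLP0), 3.21 (RPLP1) and 7.34 (RPLP2), and of these RPLP2 had H3K27ac, at 3.54. The H3K4me3 values of RPLP0 and RPLP2 belong to peaks centred upstream of the start, by 619.5 and 1146.5 bp.

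Of 9 annotated paralogs, 3 had H3K4me3 (33.3%, 7.49 to 70.1, against 38.2% of all protein-coding starts) and 2 H3K27ac (22.2%, 2.81 to 60, against 23.6%). These shares lie near those of all genes. RPL26L1 had both marks, at −log10 q 4.89 and 7.14, and so did its partner RPL26, at 3.59 and 3.38. RPL7L1 had both, at 4.60 and 1.38, and RPL7 had H3K4me3 at 5.28. RPS27L had H3K4me3 at 1.31, the lowest value at any member start, while RPS27 had neither mark. RPL22L1, RPL3L, RPL10L and RPL39L had none within 1 kb, nor had their partners RPL22, RPL3, RPL10 and RPL39. At the canonical start, RPL22 and RPL3 had both marks and RPL39L had H3K4me3. RPS4X and its Y copies RPS4Y1 and RPS4Y2 had no peak at the start or over the body, on chromosomes where few or no protein-coding starts were marked. The pairs in which 1 paralog had H3K4me3 and both genes could be placed are printed at their RefSeq starts, where the standard gene has the pyrimidine run and the paralog does not. The canonical start of RPL26L1 lies 695 bp farther downstream, and the sequence there was not examined.
RPL26 (chr17:8286492-8286551, minus strand): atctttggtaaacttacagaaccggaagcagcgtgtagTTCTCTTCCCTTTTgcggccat
RPL26L1 (chr5:172385692-172385751, plus strand): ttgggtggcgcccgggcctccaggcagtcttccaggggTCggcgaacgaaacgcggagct
RPS27 (chr1:153963198-153963257, plus strand): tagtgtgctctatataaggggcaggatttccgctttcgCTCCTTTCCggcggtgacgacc
RPS27L (chr15:63449657-63449716, minus strand): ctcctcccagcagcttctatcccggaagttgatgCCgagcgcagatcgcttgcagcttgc

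RPL26 and RPS27 carry runs of 14 and 9 bases, and RPL26L1 and RPS27L runs of 2 bases each. In the RPL26 pair both genes had both marks, and in the RPS27 pair the gene without the run had the H3K4me3 peak. Among all paralogs with a RefSeq promoter, 2 of 7 had the C start with 4 pyrimidines, against 42 of 62 standard genes.

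Copies of ribosomal protein messages inserted back into the genome, the processed pseudogenes, are numerous and mostly silent. Ribosomal protein pseudogenes were taken by symbol, whatever their annotated pseudogene type. Of these 1604, 15 had H3K4me3 within 1 kb of their start (0.935%, 0.524 to 1.54) and 25 had H3K27ac (1.56%, 1.01 to 2.29). Other pseudogenes, of the processed type only, had 1.13% and 1.32%, so the sets are not alike in type. Over 3 kb from every protein-coding start, the shares were 0.521% and 1.43% of 1535 ribosomal protein pseudogenes, against 0.745% and 1.09% of 8726 other processed pseudogenes. The strongest H3K4me3 peaks lay at RPL13P5 (−log10 q 7.24), RPSAP52 (5.36) and RPL21P122 (3.98), within 0.180, 2.54 and 0.679 kb of the starts of LRRC23, HMGA2 and MAP2K4. The strongest H3K27ac peaks lay at RPL13AP8 (6.73), RPL23AP8 (6.48) and RPL37P13 (5.92), at 10.2, 20.7 and 4.07 kb from the nearest protein-coding start. The peaks of RPL13AP8 and RPL37P13 overlapped the protein-coding genes FCMR and TMEM17.

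The line was checked against marker genes. H3K4me3 was present at all 5 epithelial markers (EPCAM, CDH1, KRT8, KRT18 and KRT19) and H3K27ac at 4, and 2 and 3 of 5 lung lineage markers carried them, with NAPSA and SFTPB at neither. None of 3 fibroblast, 3 leukocyte or 1 endothelial marker starts had a peak. PECAM1 was not found in the annotation used.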

How the data were processed

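Peak lists of H3K4me3 and H3K27ac were used, 1 library each. Per the study's methods and processing notes, the authors aligned reads to hg19 with Bowtie 1.1.1 and called peaks with MACS2 2.1.0. Not given in the sources used here are the threshold, the treatment of duplicates and of reads mapping to several places, and whether input served as control in peak calling. The methods say only that input chromatin was kept for normalization. The last column of the deposited lists has no header and was read as −log10 q of each summit, since its smallest values (1.303 and 1.306) lie just above a q of 0.05. It depends on depth and copy number, so it was compared only within a list. Entries that share an interval were joined into 1 peak with their highest value (24096 for H3K27ac, 18585 for H3K4me3).

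Genes came from GENCODE 44 mapped to GRCh37, and positions are 1-based. A peak was assigned when it shared at least 1 bp with the window or body. Genes were named when they had neither mark or H3K27ac alone, led in −log10 q, covered length or body share, lay on X or Y, or belonged to the stalk, paralog or disease lists. A few genes that this rule names are not reported here by name and were not drawn, but they are in every count. The members and lists were chosen with earlier results of these data known. Start-base, intron, side, chromosome and neighbour counts were added after the data had been seen. Shares have exact Clopper-Pearson 95% intervals (SciPy 1.17.1), and the reading of windows was tested on simulated data. No test was made, because each mark has 1 library.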

Additional observations from a re-analysis of the deposited data

How the results depend on the processing

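Of 70 alternative values for 13 results, 51 stayed within the 95% interval of the share or within 1.5 times the median, and 19 moved. At all 39 settings of the start shares, the ribosomal protein genes lay above all protein-coding genes scored the same way. H3K4me3, H3K27ac and both marks were present at 47.7%, 38.4% and 29.1% of starts within 500 bp, and at 74.4%, 60.5% and 55.8% within 3 kb. They were present at 47.7%, 36% and 27.9% when peaks below the median −log10 q of their list were dropped, and at 18.6%, 8.14% and 2.33% with −log10 q of at least 5, where all genes had 10.7%, 3.53% and 1.56%. From any transcript start, H3K4me3 rose to 73.3%. With those peaks dropped, bodies overlapped were 59.3% for H3K4me3 and 41.9% for H3K27ac, and without the first 1 kb H3K27ac had 36%. Pseudogene shares were 0.499% (H3K4me3) and 0.998% (H3K27ac) with them dropped, 0.810% for H3K27ac within 500 bp and 0.521% for H3K4me3 over 3 kb from protein-coding starts. The alternatives contain fewer peaks, other windows or fewer pseudogenes by construction.

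Restrictions chosen after the data were seen kept the start shares within their intervals. With at most 50% multi-copy words, H3K4me3 marked 65.1% of 83 genes, against 39.9%. Where at least 20% of neighbouring starts had H3K4me3, it marked 71.8% of 71 genes, against 44.9%. No paired analysis was possible because no mark has a second library. The lists give no read depth and no control values, so a missing peak is no evidence of a missing mark.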
